A study of Drosophila melanogaster with 2 samples.

Results

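Photoreceptor genes were examined in the open chromatin of adult mushroom body (MB) nuclei, because these nuclei were captured from whole head homogenates, which also contain the eyes. They comprised 6 rhodopsin genes (ninaE, Rh2, Rh3, Rh4, Rh5 and Rh6) and the rhabdomere adhesion gene chp. The others were the light-activated channel gene trp, the transcription factor gene gl and the phospholipase gene norpA. The 10 genes are among the 17684 that the RefSeq table of genome release 6 (dm6) lists on the chromosome arms. All 10 were found there by symbol. A peak was counted for a gene when it overlapped the gene's span, extended by 1 kb on both sides, by at least 1 bp. On this rule, 7 of the 10 genes had a peak in both replicates, a share near the 66.6% of all genes. A peak lay over the gene itself in 3 of the 10, against 54.0% of all genes. Across a gene end there was a peak in 1 of the 10, against 48.3% of all genes.

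Open chromatin was read out by ATAC-seq, in which Tn5 transposase cuts open DNA and tags it for sequencing, so that peaks of fragments mark open chromatin. The data comprised 1 condition, naive adult male control flies, as 2 biological replicates, each from a pool of 50 to 60 fly heads by the sample descriptions. The study's general protocol gives a slightly wider range. Neither the age of these flies nor any temperature shift, on which the activity of Gal4 depends here, was stated for them in the sources used. The flies were w* and carried UAS-unc84::2xGFP over tubGal80(ts), which are a GFP-tagged nuclear envelope protein and a temperature-sensitive repressor of Gal4. They also carried P{VALIUM20-mCherry.RNAi}attP2, a control hairpin against a fluorescent protein that flies lack, over R14H06-Gal4. Tagged nuclei were captured with anti-GFP beads, so that the capture depends on where R14H06-Gal4, which is driven by an enhancer of rut, is active and on how many untagged nuclei the beads retain. The share of eye nuclei among those captured was not tested. No other condition, tissue or whole head sample was compared, and no test between groups was possible. Each peak carries a fold enrichment, which is the authors' ratio of the signal at the peak summit to the local background in MACS2.

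In the fly eye, a rhodopsin absorbs light and activates a G protein, which stimulates the phospholipase C encoded by norpA, and the TRP channel then opens. These proteins sit in the rhabdomere, a stack of microvilli in each photoreceptor cell, and each photoreceptor type normally makes a single rhodopsin. Rhodopsin genes are known for short promoters that drive expression in photoreceptors. norpA is also used outside the eye, including in the brain.

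The lists held 17942 peaks in replicate 1 and 15248 in replicate 2, with a median fold enrichment of 2.33 and 2.55. The nuclei were checked against markers of Kenyon cells, the intrinsic neurons of the MB. All 15 Kenyon cell markers had a peak in both replicates, and in 14 of them a peak covered an end of the gene, against 66.6% and 48.3% of all genes. These markers are long, with a median of 36409 bp against 3382 bp for the photoreceptor genes, and longer genes have more room for peaks. The highest were toy, a Pax6 gene that also acts in eye formation, with 8.01 and 7.99 in replicates 1 and 2, and the dopamine receptor gene Dop1R1 with 6.52 and 6.59. Of 9 glial markers, 6 (66.7%) had a peak in both replicates, a share at the background. They were led by wrapper, with 6.36 and 6.18, and nrv2, with 5.47 and 5.47. Of these, wrapper did not have a peak clear of other genes in both replicates. repo, which defines glia, had 1 weak peak of 1.38 in replicate 1 alone, and alrm and Gat had none.

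Of the 10 photoreceptor genes, 7 (70.0%) had a peak within 1 kb in both replicates, namely Rh3, Rh4, Rh5, Rh6, trp, gl and norpA. Among all 17684 genes the share was 66.6%, among protein-coding genes it was 71.5%, and among genes no longer than Rh4, the longest rhodopsin gene, it was 62.9%. The share of photoreceptor genes thus lay near the background. ninaE had peaks in replicate 1 alone, and Rh2 and chp had none. A peak overlapped the gene span itself in 3 genes (Rh4, gl and norpA), against 54.0% of all genes, and 1 gene (norpA) had a peak that covered a gene end, against 48.3% of all genes. Either end was used, because the gene table gives no strand and the transcription start site was therefore not known. Within 500 bp of a gene end there was a peak in both replicates for 5 genes (Rh3, Rh5, trp, gl and norpA), against 59.8% of all genes. The counts of 10 genes are small, and no test was made over them. Since fragments of all captured nuclei were pooled, a peak that is open in few nuclei and a peak that is weakly open in many cannot be told apart.

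**Figure D1:**
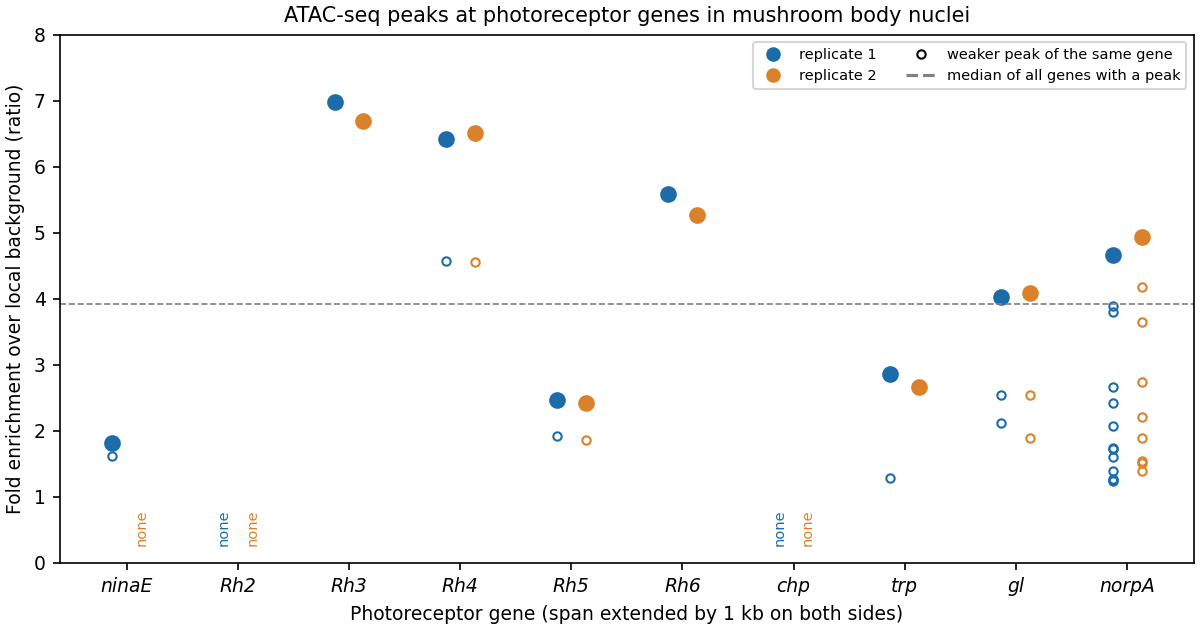
Fold enrichment (ratio, linear axis) of every peak counted for each photoreceptor gene, with filled points for the highest peak of each replicate and open points for weaker ones. The highest peaks of Rh3, Rh4 and Rh6 lie above 5 in both replicates. At Rh4 and Rh6 the summits of these peaks were nearest an end of sina and of obe. Rh5 and trp lie below 3, and Rh2 and chp have no peak. The dashed line is the median of 3.92 over all genes with a peak in both replicates.

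The highest peak of each gene had a similar fold enrichment in both replicates. The mean ranged from 2.45 at Rh5 to 6.84 at Rh3, with a median of 4.80 over the 7 genes. The median over all 11782 genes with a peak in both replicates was 3.92, with quartiles of 2.83 and 5.04. At Rh4, Rh6 and gl, however, the highest peak had its summit nearest an end of another gene, namely sina, obe and Nup43. With only summits inside the extended span counted, the median of the photoreceptor genes was 3.78, over 6 genes. The value of Rh5 is relative to a local background that was 7.43 to 9.77 times the median of all peaks. Without Rh5 the means ran from 2.77 at trp to 6.84, with a median of 5.12 over 6 genes. Replicate 1 held 26 peaks at these genes and replicate 2 held 19, of which norpA alone had 13 and 9. Overlapping peaks of the replicates formed 20 pairs, and the ratio of replicate 1 to replicate 2 had a median of 1.04. A single pair, inside norpA, had a ratio of 0.507, because replicate 1 split there into a small and a large peak, and the other 19 ratios ran from 0.909 to 1.25. The spread between replicates was thus small beside the range over genes.

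Among the rhodopsin genes, no peak lay over a rhodopsin gene except at Rh4, where other genes are nested. Peaks covered 0% of the spans of ninaE, Rh2, Rh3, Rh5 and Rh6 in both replicates. Of the 8 rhodopsin peaks in replicate 1, 4 overlapped no annotated gene and 4 overlapped a gene other than a rhodopsin. In replicate 2 there were 6 such peaks, 3 of each kind.

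ninaE encodes Rh1, the main rhodopsin of the outer photoreceptors and one of the most abundant transcripts of the eye. It spans 1952 bp on 3R from 19886255 to 19888206. In replicate 1, a peak with a fold enrichment of 1.81 lay 740 bp outside the gene, within the neighbouring kinase gene Ask1, and one of 1.62 lay 964 bp beyond the other end. In replicate 2 the nearest peaks were narrower and lay 1211 bp and 1167 bp away, with 1.66 and 1.53, just outside the window of 1 kb. The lack of a ninaE peak in replicate 2 therefore rested on the edge of the window and not on the absence of a peak, and neither replicate had a peak over the gene. These peaks were weak, with the higher one at percentile 36.3 of all peaks in replicate 1.

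Rh2, the rhodopsin of the ocelli, lies on 3R from 18899423 to 18901019, with CG14297 only 81 bp away. The nearest peak, over no annotated gene, was 2223 bp away in replicate 1, where it reached 3.02, and 2272 bp away in replicate 2, where it reached 2.88. chp encodes chaoptin, a surface protein that holds the rhabdomere microvilli together, and lies on 3R from 31204180 to 31210730. Its nearest peaks, with 3.09 and 2.78, were 2098 bp and 2280 bp away over Zwilch and CG1542. Both genes thus lay in stretches without a called peak in either replicate, although each has close neighbours.

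Rh3, a rhodopsin for ultraviolet light of the inner photoreceptors, had the peak with the highest fold enrichment of the photoreceptor genes. The gene is the shortest of them, with 1391 bp on 3R from 20081060 to 20082450, and no other gene lies within 21310 bp. Its peak ran from 20079360 to 20080784 in replicate 1 and from 20079388 to 20080801 in replicate 2, so that it ended 276 bp and 259 bp short of the gene. It was enriched 6.99-fold in replicate 1 and 6.69-fold in replicate 2 (6.84 ± 0.214, SD, n = 2), at percentiles 97.9 and 96.6 of all peaks. The summits lay 771 bp and 753 bp outside the gene. Among peaks that overlap no annotated gene, of which there were 2756 in replicate 1 and 2265 in replicate 2, only 37 and 54 had a higher fold enrichment, and their medians were 1.99 and 2.14. Whether this gene end holds the start of Rh3 was not known from the table used.

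Rh4, the other ultraviolet rhodopsin of the inner photoreceptors, spans 9991 bp on 3L from 16852527 to 16862517 and contains sina, sinah and CG13029 entirely. A peak of 6.43 in replicate 1 and 6.52 in replicate 2 lay inside Rh4 and across an end of sina, with its summit 197 bp and 225 bp from that end. sina encodes a ubiquitin ligase that acts in photoreceptor specification and in other tissues. The second peak, with 4.57 and 4.56, lay 561 bp and 591 bp beyond Rh4 over CG9951 and Lmpt, with its summits 40 bp and 62 bp from an end of Lmpt. Every peak at Rh4 thus overlapped another gene, and none came within 500 bp of an end of Rh4 itself.

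Rh6, the rhodopsin for green light of inner photoreceptors, likewise had no peak that was clear of other genes. It lies on 3R from 15483158 to 15484699, only 31 bp from the neuropeptide gene Trissin. Its single peak, with 5.59 and 5.27, began 677 bp and 824 bp beyond the gene and overlapped obe, with summits 106 bp and 18 bp from an end of obe. In replicate 1 it also reached Trissin. With the requirement that a peak overlap no other gene, 5 of the 10 photoreceptor genes kept one (Rh3, Rh5, trp, gl and norpA), against 25.8% of all genes.

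**Figure D2:**
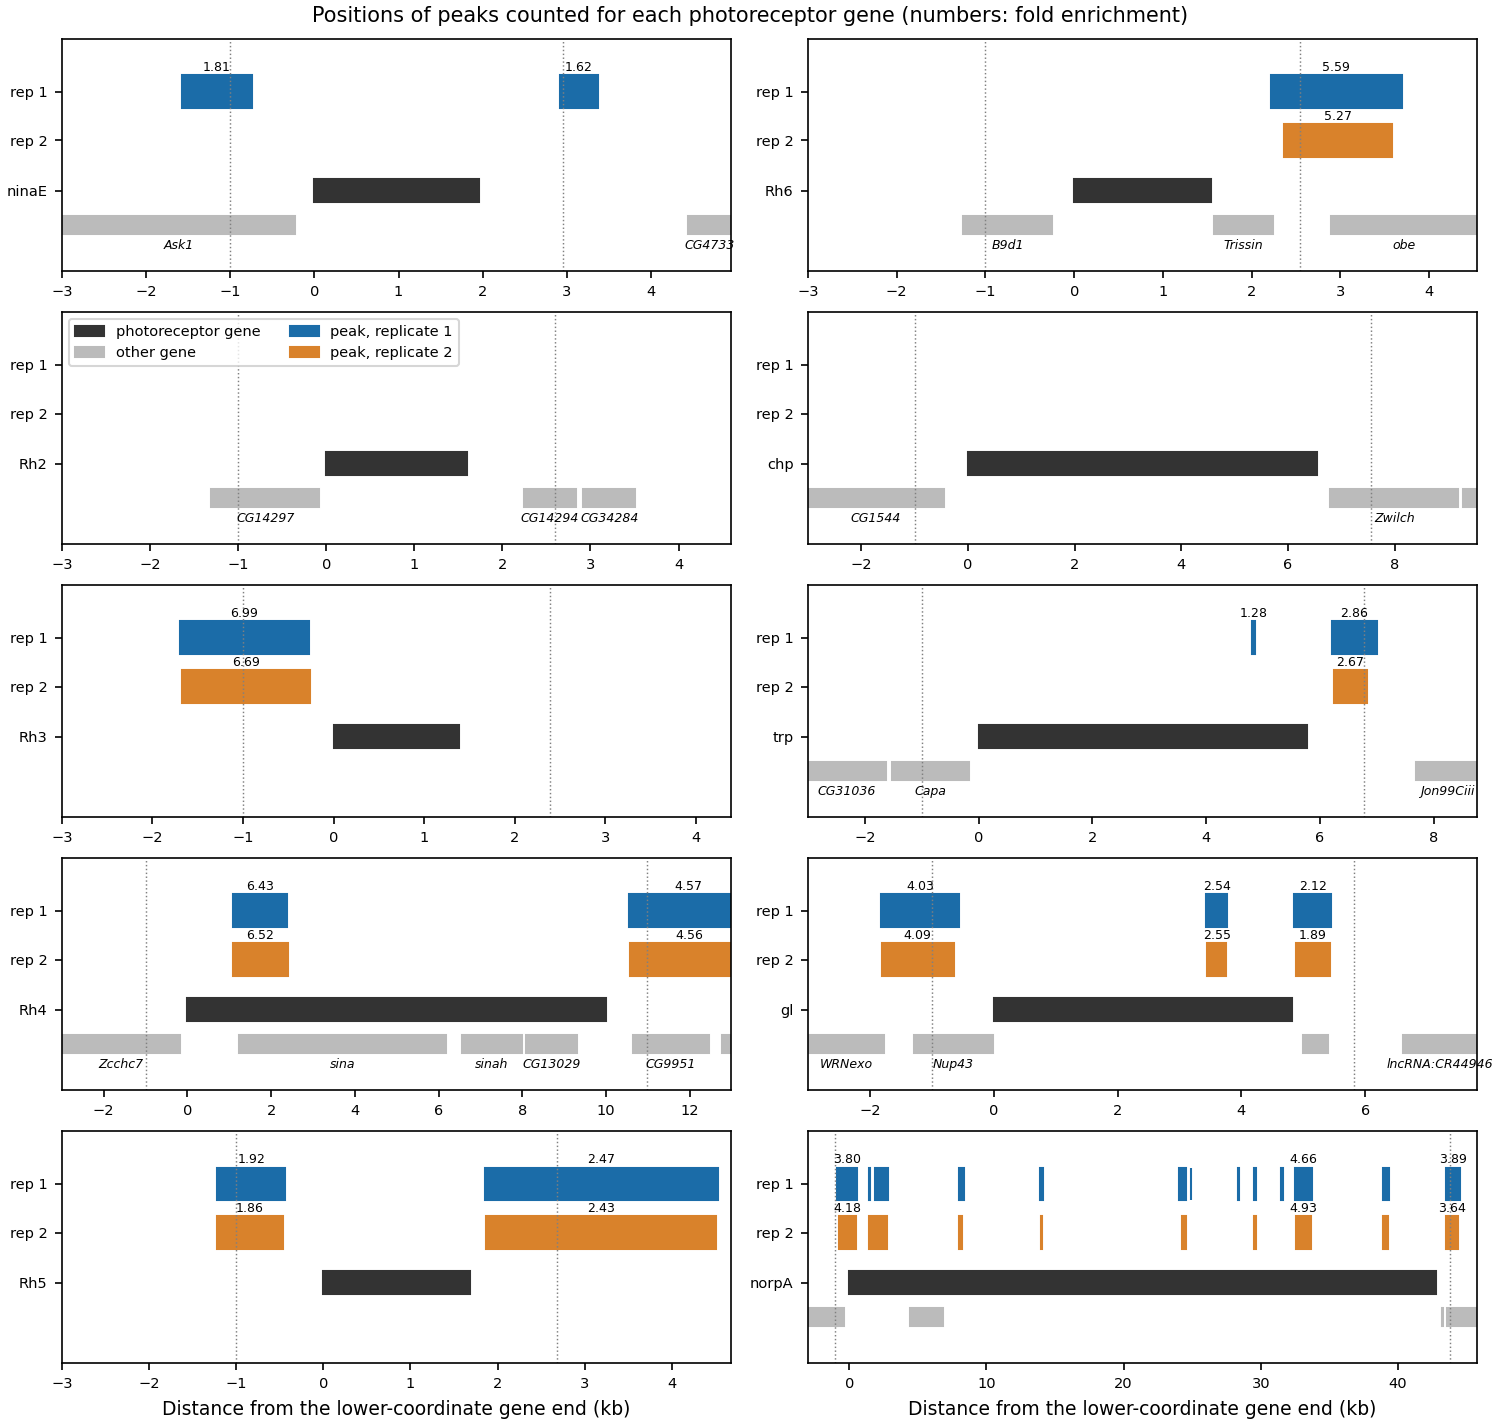
Position of the peaks counted for each photoreceptor gene, in kb from the lower-coordinate end of the gene, with the gene in black, other genes in grey and peaks of replicates 1 and 2 in blue and orange. Numbers are fold enrichments (at norpA only those above 3), and dotted lines mark 1 kb outside the gene; no bar lies over ninaE, Rh2, Rh3, Rh5, Rh6 or chp, and peaks entirely beyond the dotted lines are not drawn.

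Rh5, the rhodopsin for blue light of inner photoreceptors, spans 1680 bp on 2L from 12008153 to 12009832 and had a peak on each side and none over the gene. On the lower side, the peak reached 1.92 in replicate 1 and 1.86 in replicate 2 and ended 435 bp and 469 bp from the gene. On the other side, a wide peak of 2681 bp and 2640 bp began 172 bp and 189 bp from the gene, with 2.47 and 2.43. By fold enrichment these were ordinary peaks, and the higher one lay at percentiles 53.2 and 46.9. Their -log10 q was far from ordinary. At the wide peak it was 704 in replicate 1 and 346 in replicate 2, whereas the 385 and 405 peaks with a fold enrichment within 0.05 of it, which include it, had medians of 95.5 and 42.0. At the narrower peak it was 377 and 171, against medians of 39.3 and 16.6. In all 4 cases the Rh5 peak was itself the highest of its set.

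Because MACS2 takes both values from a Poisson model of the signal over a local background, the background at each peak was solved from its fold enrichment and -log10 p. For 37.9% of peaks in replicate 1 and 36.0% in replicate 2 this background took a single value, 0.861 and 0.839 times the replicate's median, as a shared genome-wide minimum would give. At the peaks beside Rh5 it was 9.15 and 7.43 times the median in replicate 1 and 9.77 and 8.01 times the median in replicate 2. The stretch between the genes that flank Rh5, 11261 bp long from 12002267 to 12013527, held 4 peaks in replicate 1 and 5 in replicate 2, with ratios from 6.03 to 9.15 and from 6.35 to 9.77. These were the 4 highest values of all 17942 peaks and the 5 highest of all 15248 peaks, and the next highest elsewhere were 5.93 and 5.97. Within 100 kb on either side of Rh5, the other 28 and 23 peaks had medians of 1.06 and 1.07 and reached at most 2.35 and 2.33. The background is known at peaks only, so that the edges of the rise were not located. The nearest peaks outside the stretch, which ended at 11996294 and began at 12019716 in replicate 1, had 0.861 and 0.896 times the median. In replicate 2, where they ended at 11996260 and began at 12019990, they had 0.839 and 0.873 times the median. The fold enrichment at Rh5 is relative to this raised background, so that it cannot be set beside that of the other genes as a measure of the signal. The wide Rh5 peak had the highest implied signal of all peaks in both replicates. The source of the raised background was not tested.

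**Figure D3:**
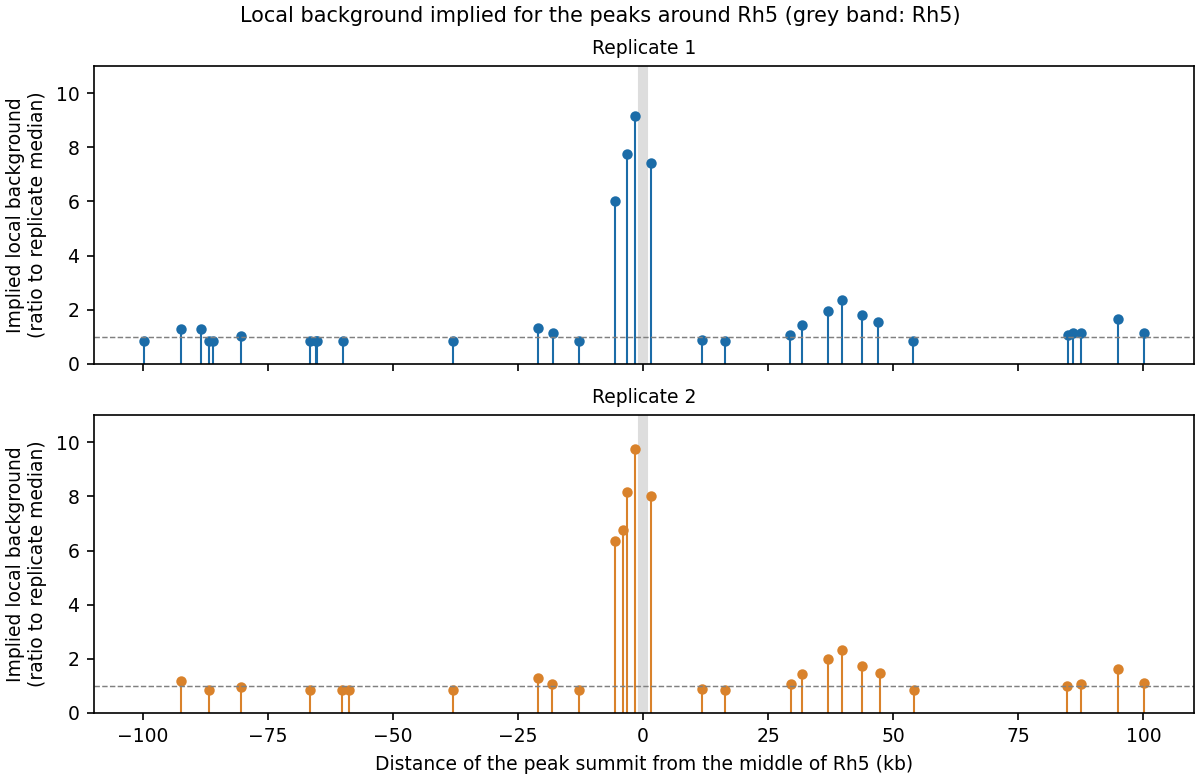
Local background implied by the fold enrichment and -log10 p of each peak within 100 kb of Rh5, as a ratio to the median of all peaks of the replicate (vertical axis), against the distance of the summit from the middle of Rh5 in kb. The peaks of the stretch around Rh5 stand between 6.03 and 9.77, and the others within 100 kb lie at or below 2.35.

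trp encodes the main light-activated cation channel and spans 5769 bp on 3R from 29914521 to 29920289. Its main peak lay outside every annotated gene, 448 bp beyond trp in replicate 1 and 472 bp in replicate 2, and was enriched 2.86-fold and 2.67-fold (2.77 ± 0.135, SD, n = 2). Inside the gene there was a peak of 63 bp with 1.28 in replicate 1 and none in replicate 2. This second peak was among the weakest of the list, at percentile 7.41. No peak lay within 1 kb of the other end of trp, where the neuropeptide gene Capa is 175 bp away.

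gl encodes Glass, a zinc finger transcription factor that photoreceptors need to mature, and was the only one of the 10 besides norpA with a peak inside the gene that overlapped no other gene in both replicates. It spans 4812 bp on 3R from 18367927 to 18372738. The peak inside it, from 18371362 to 18371699 in replicate 1 and from 18371377 to 18371680 in replicate 2, was enriched 2.54-fold and 2.55-fold. Its summits lay 1151 bp and 1171 bp from the nearer end of gl. A second peak, with 2.12 and 1.89, began 40 bp and 73 bp beyond this end and covered the whole of lncRNA:CR14310. The highest peak, with 4.03 and 4.09, lay 554 bp and 646 bp beyond the other end, over WRNexo and the nucleoporin gene Nup43, with summits 8 bp and 98 bp from an end of Nup43. Without peaks outside the span, the mean fold enrichment of gl was 2.54 in place of 4.06.

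norpA, the phospholipase C gene, differed from all other photoreceptor genes in having many peaks inside the gene. It is also the longest, with 42783 bp on X from 4322626 to 4365408. The peak across its lower end reached 3.80 in replicate 1 and 4.18 in replicate 2, with the summits 108 bp and 121 bp outside norpA, and it also overlapped mRpL33, a mitochondrial ribosomal protein gene. The highest peak, with 4.66 and 4.93 (4.80 ± 0.193, SD, n = 2), lay inside norpA, from 4355152 to 4356330 in replicate 1, and 9516 bp from the nearest end of any gene. Its percentiles were 85.4 and 86.2. Summits of 11 peaks in replicate 1 and of 7 peaks in replicate 2 fell inside the gene, and 4 of those in replicate 1, with 1.23 to 1.39, were among its weakest. At the upper end, a peak of 3.89 and 3.64 lay 708 bp and 727 bp beyond norpA, over mir-303 and CG3626.

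The other genes of the phototransduction cascade and of rhodopsin maturation were counted in the same way. Of 24 genes, 17 (70.8%) had a peak within 1 kb in both replicates, a share near the 66.6% of all genes. In 13 of the 24 a peak covered a gene end, against 1 of the 10 photoreceptor genes and 48.3% of all genes. The highest were Gprk1, a kinase of G protein-coupled receptors, with 7.15 and 7.55 in replicates 1 and 2, and rdgA, a diacylglycerol kinase, with 6.92 and 7.59. Both are long genes, with 148766 bp and 122409 bp. The 7 genes without any peak included the cyclophilin gene ninaA, the myosin gene ninaC, the scavenger receptor gene ninaD, the arrestin genes Arr1 and Arr2, and rtp. Among these the longest was ninaC, with 6643 bp. Rh7, a rhodopsin that is known from brain neurons and was singled out here after its values were seen, had 4 peaks in each replicate, the highest with 6.31 and 6.20, and a peak covered an end of the gene.

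Of 24 genes for transcription factors and signals of eye development, 20 (83.3%) had a peak in both replicates, against 66.6% of all genes. In 13 of the 24 a peak covered a gene end, against 48.3% of all genes. The median length of this list was 13034 bp. The highest were toy, given above, and danr, with 7.59 and 6.95. ey, toy and dac of this list are also Kenyon cell markers. The genes without a peak were Pph13, a homeobox gene that acts at rhodopsin promoters, sens and run, and sev, a receptor of photoreceptor specification, had 1 peak of 1.30 in replicate 1 alone. In a list of 8 genes of rhabdomere and retina structure, which includes chp, 5 (62.5%) had a peak in both replicates. These were led by eys, with 5.56 and 5.51, and crb, with 4.67 and 5.04, whereas Act57B, ninaC and chp had none. Of the leading genes of these lists, danr, eys and, in the histamine list below, HisCl1 did not have a peak clear of other genes in both replicates. Of 7 genes for histamine, the transmitter of photoreceptors, 4 (57.1%) had a peak in both replicates. The share of all genes was 66.6%, and with only 8 and 7 genes in these lists no direction is read from their shares. The histamine genes were led by the receptor genes ort, with 4.12 and 4.50, and HisCl1, with 4.18 and 4.25. The receptor encoded by ort acts in neurons that receive the signal. Hdc, the enzyme that makes histamine in photoreceptors, reached 1.74 and 1.59 and had no peak within 500 bp of a gene end in both replicates. e, an enzyme of histamine recycling, had 1.32 in replicate 1 alone, and the transporter gene CarT and the hydrolase gene t had no peak.

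**Figure D4:**
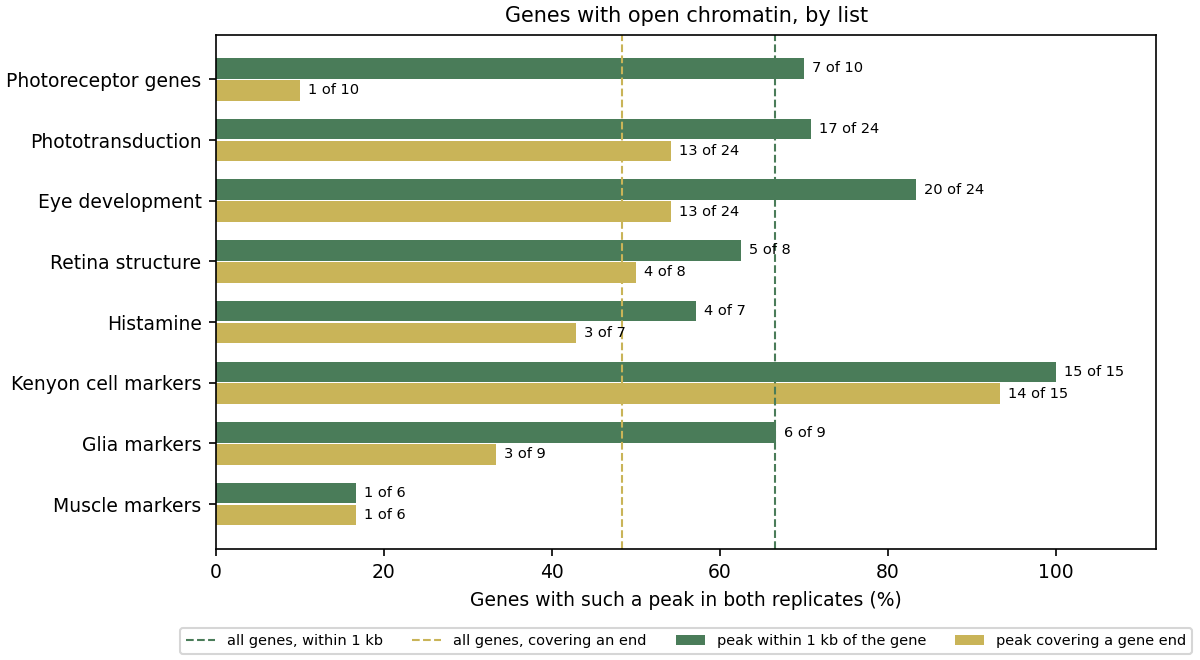
Share of genes (%) with a peak within 1 kb of the gene (green) and with a peak covering a gene end (yellow), each in both replicates, for the photoreceptor genes and other lists, with dashed lines at 66.6% and 48.3% for all genes. The photoreceptor genes lie near the green line (7 of 10) and below the yellow one (1 of 10), whereas Kenyon cell markers reach 15 of 15 and 14 of 15.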

How the data were processed

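ATAC-seq peak lists of 2 replicates of 1 condition were used. Per the authors' methods and processing notes, Trimmomatic (version 0.39) trimmed the reads and Bowtie2 (version 2.4.1) aligned these to release 6 (dm6). The authors shifted the reads by 4 bp and -5 bp for the Tn5 cut and removed multi-mapped, mitochondrial and duplicate reads. They called peaks per replicate with MACS2 (version 2.1.2, q threshold 0.01). The deposited columns hold fold enrichment, a ratio to the local background; -log10 p and -log10 q, which the authors did not scale for depth; and a score, which in the deposited lists is the -log10 q times 10. The lists hold no reads, so that depth and counting intervals were not derived.

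Gene spans came from a RefSeq table (release 6) without strand, transcripts or sequence, so that exons, UTRs and sequences were not analysed here. Of 107 list names, 105 matched by symbol and 2 by synonym. Overlaps and the implied background (Poisson model, pseudocount 1) were computed with Python (version 3.11.15), numpy (version 2.4.6) and pandas (version 2.3.3), and tested on simulated data. The genes and lists were chosen with earlier results of these data known. Named in the text were all photoreceptor genes, genes under their peaks, and in each list the 2 highest genes and those without a peak, at most 6. Rh7, Hdc and list genes with a peak in replicate 1 alone were named after their values were seen. Fold enrichment is given as mean ± SD (n = 2). A peak "in both replicates" means at least 1 in each. Alternatives were no extension or 3 kb, summits only, a -log10 q of at least 10, a reciprocal overlap of 50%, peaks that overlap no other gene, other gene-end windows and backgrounds, the peak with the highest -log10 q, and each replicate alone.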

Additional observations from a re-analysis of the deposited data

How the results depend on the processing

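Of 128 comparisons of a value with an alternative, 111 left it within 1.5 times (counts) or within the replicate spread, and 17 moved it. Without extension of the span, 3 photoreceptor genes in place of 7 had a peak in both replicates, and 0 of 4 hemocyte markers in place of 2. With 3 kb, all 10 photoreceptor genes had one, and 4 of 6 muscle markers in place of 1. The count for photoreceptor genes was 7 or 8 with a single replicate. When only peaks over a gene end counted, 1 gene in place of 5 had one there. The share of all genes moved from 66.6% to 54.0% without extension, 78.8% with 3 kb, 60.7% with summits only, 63.1% with a -log10 q of at least 10, 71.5% for protein-coding genes and 62.9% for genes no longer than Rh4, and was 66.8% to 69.3% with a single replicate. The median fold enrichment of the photoreceptor genes moved from 4.80 to 3.92 with 3 kb (10 genes) and 3.78 with summits only (6 genes). It moved to 4.35 with replicate 1 alone (8 genes). With replicate 2 alone (7 genes) it stayed within the replicate spread, at 4.93. With Rh5 left out, chosen after seeing the data, it was 5.12 (6 genes). Without extension it stayed at 4.80, over 3 genes. Genes without a peak under an alternative have no value there. At Rh5, the highest implied background, 9.46 times the median as the mean of both replicates, was 9.38 without the pseudocount, an alternative chosen after seeing the data. The lists hold no reads, so that the effect of depth was not tested.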

Other observations

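Other cell types of the head were counted by their markers in the same way. Among all genes, 66.6% had a peak within 1 kb in both replicates. With 4 to 6 markers a list, the counts are small, and no test was made over them. Of 5 markers of retinal cone and pigment cells, 4 had a peak in both replicates, led by the transcription factor genes ct, with 7.32 and 7.51 in replicates 1 and 2, and sv, with 5.80 and 6.07. The lens protein gene Crys had 1.38 in replicate 1 alone. w, one of these markers, is also carried by transgenes. Of 5 fat body markers, 3 had a peak in both replicates, led by apolpp, with 4.38 and 4.23, and FASN1, with 3.77 and 3.87, whereas to and fit had none. Muscle markers had the lowest share, with 1 of 6, at Mlc2 with 2.04 and 1.84, and Mhc, Act88F, TpnC4, up and wupA had no peak within 1 kb. Of 4 hemocyte markers, NimC1 had 2.36 and 2.15, Hml had 1.84 and 1.73, srp had 1.56 in replicate 1 alone and He had none. Neither apolpp nor NimC1 had a peak clear of other genes in both replicates.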
